A study of Mus musculus with 48 samples.

Results

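The transcripts of cardiomyocytes were set beside those of the other cells of the healthy mouse heart, to ask in which of the 2 cell fractions each cardiac transcript is found. The contrast was between 6 of the 48 RNA sequencing libraries of the study, chosen by their titles: 3 libraries of pooled cardiomyocytes and 3 libraries of pooled non-myocytes. All 6 came from wild type FVB mice that received vehicle and were killed at 16 weeks of age. The labels put the stage term DCM, dilated cardiomyopathy, on these wild type libraries as well as on those of mutant mice of the same age. The study also held the same fractions from wild type mice that received JQ1 (50 mg/kg), which blocks BET bromodomains, and from mice carrying PLNR9C, a phospholamban mutation, given vehicle or JQ1. Left ventricles of wild type vehicle mice were sequenced at 8 and at 20 weeks. The series' design text calls the 3 libraries of a group individual biological replicates, and the labels do not say how many animals made up a pool.

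Cardiomyocytes are the contractile cells of the heart, packed with sarcomeres, calcium stores and mitochondria that burn mainly fatty acids. Fibroblasts make and remodel the matrix around them, endothelial cells line the vessels, mural cells (pericytes and smooth muscle) wrap them, and macrophages reside between the muscle fibres. Many signals of the heart pass between these cells, with a ligand made in one and its receptor in another. In libraries of pooled cells, fewer cells of a type and less RNA per cell cannot be told apart.

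Reads were counted per gene by the authors, with 11101930 to 11719727 reads in genes per cardiomyocyte library and 10589355 to 11051878 per non-myocyte library. Levels are given as CPM, read counts scaled to a common library size with TMM factors, as mean ± SD over n = 3 libraries unless single libraries are named. A log2 fold change is cardiomyocytes minus non-myocytes, with its standard error, so a positive value is higher in cardiomyocytes. The test was edgeR's quasi-likelihood test, fitted over all 24 fraction libraries of the study, so that the other 18 share in the filter, the scaling and the estimate of spread. A gene was called with a Benjamini-Hochberg adjusted p under 0.05 over all 15823 genes tested. The cardiomyocyte libraries were the more concentrated: their 10 most abundant genes took 21.8% to 23.2% of reads, against 6.59% to 7.05% in non-myocytes, and mitochondrially encoded genes took 13.2% to 14.1%, against 3.71% to 3.91%. TMM factors stood at 0.70 to 0.74 in cardiomyocytes and at 1.40 to 1.42 in non-myocytes. The median log2 fold change of all genes was -0.13 with TMM and -1.10 with total reads as the only scaling, so the balance of calls between the fractions rests on this choice.

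Most genes differed between the fractions. Of the 15823 genes tested, 5907 (37.3%) were higher in cardiomyocytes and 6679 (42.2%) were higher in non-myocytes. Every count of list members below stands beside these shares. With total reads as the only scaling, the counts were 3178 and 10419, and the share of calls that were higher in cardiomyocytes was 23.4% in place of 46.9%. At least 8-fold higher in cardiomyocytes were 1235 genes (7.81%), and at least 8-fold higher in non-myocytes were 1294 genes (8.18%). At least 32-fold differences numbered 268 (1.69%) in cardiomyocytes and 158 (0.999%) in non-myocytes. Of all genes tested, 38.7% had every cardiomyocyte library above every non-myocyte library and 43.5% had every one below, so separation of the 3 and 3 libraries was common in this comparison.

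The fractions matched their labels by their defining markers. All 15 cardiomyocyte markers were higher in cardiomyocytes, and their summed level was 172460, 166680 and 178680 CPM in the cardiomyocyte libraries, against 3469, 5148 and 3368 CPM in the non-myocyte libraries. Non-myocyte replicate 2 thus held the most cardiomyocyte transcript of its group. Myh6, the main myosin heavy chain of the adult mouse heart, had 51267 ± 4978 CPM in cardiomyocytes and 1047 ± 295 CPM in non-myocytes. Across the 15 markers, the level in non-myocytes was a median of 2.72% of that in cardiomyocytes, with a range of 0.881% to 3.50%. All 13 fibroblast markers were higher in non-myocytes, with sums of 775, 873 and 675 CPM in cardiomyocytes against 17138, 16759 and 17034 CPM in non-myocytes, and a median of 5.41% in the cardiomyocyte fraction. All 13 macrophage markers were also higher in non-myocytes, with a median of 4.69% in cardiomyocytes. The 11 endothelial markers, all higher in non-myocytes too, kept a median of 23.6% of their non-myocyte level in cardiomyocytes, with sums of 1204, 1562 and 1434 CPM against 5284, 6187 and 6370 CPM. Of 12 mural markers 10 were higher in non-myocytes, with a median of 19.4%. By RPKM, which carries no TMM factor, the residues were 5.30% for cardiomyocyte markers in non-myocytes, and in cardiomyocytes 2.78% for fibroblast, 12.1% for endothelial and 2.41% for macrophage markers. Endothelial and mural transcripts were thus far more present in the cardiomyocyte libraries than fibroblast and macrophage transcripts, and every cardiomyocyte level of a vascular gene below stands beside that residue; its part in those levels was not tested.

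**Figure D1:**
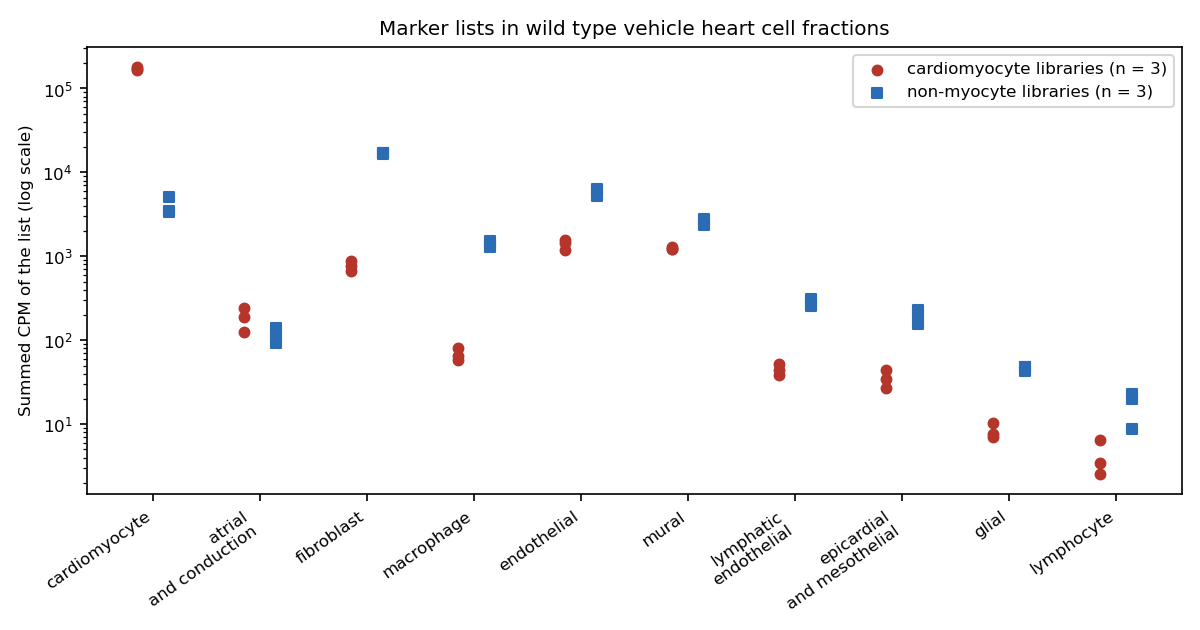
Summed CPM of each marker list in each of the 3 cardiomyocyte and 3 non-myocyte libraries, on a log10 axis; each point is 1 library. Cardiomyocyte markers lie between 166680 and 178680 CPM in cardiomyocytes and between 3368 and 5148 CPM in non-myocytes, and the 2 fractions lie closer together for endothelial and mural markers than for fibroblast and macrophage markers.

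The 5 lymphatic endothelial markers tested, the 8 epicardial markers and the 6 glial markers tested were all higher in non-myocytes, with median residues of 7.52%, 16.3% and 15.2% in cardiomyocytes. Both granulocyte and mast cell markers tested, both red cell markers tested and both skeletal muscle markers tested were higher in non-myocytes. The 2 of 8 skeletal muscle markers tested were scarce. Mylpf had 0.200 CPM in cardiomyocytes and 0.870 CPM in non-myocytes, and Tnnt3 had 0.118 and 1.57 CPM. Of those not tested, Myh2 was higher in every cardiomyocyte library and Actn3 in every non-myocyte library. None of the 5 adipocyte markers passed the filter on low counts. Of 8 lymphocyte markers tested 7 were higher in non-myocytes; Cd3e, a chain of the T cell receptor complex, had 3.27 ± 2.14 CPM in cardiomyocytes and 1.52 ± 0.561 CPM in non-myocytes, which did not pass (log2 1.10 ± 0.71) but did in a fit of the 6 libraries with replicate numbers as a block (1.09). Of 10 atrial and conduction genes tested 4 were higher in cardiomyocytes and 3 in non-myocytes. The pacemaker channel gene Hcn4 had 12.9 ± 3.05 CPM in cardiomyocytes and 0.478 ± 0.0942 CPM in non-myocytes, whereas Tbx3, a transcription factor of the conduction system, had 24.1 ± 2.83 CPM in cardiomyocytes and 69.8 ± 9.12 CPM in non-myocytes. Abcc9, on the mural list as the sulfonylurea receptor of pericytes, was the exception there, with 687 ± 26.6 CPM in cardiomyocytes and 379.7 ± 10.97 CPM in non-myocytes (log2 0.86 ± 0.13, but -0.11 with total-read scaling).

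The largest cardiomyocyte folds were taken among 2479 genes that were called, had no overlap and reached 50 CPM, leaving out genes on a marker list. Ppargc1a, the PGC-1 alpha coactivator of mitochondrial biogenesis, had 592, 653 and 552 CPM in cardiomyocytes, against 6.05, 11.6 and 6.53 CPM in non-myocytes (log2 6.22 ± 0.47, adjusted p = 1.7e-10, edgeR). The groups were far apart, and the highest non-myocyte library was replicate 2, which also held the most cardiomyocyte marker transcript. Its gene is on chromosome 5 at 51454249 to 51553921 on the minus strand.

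Enzymes, a membrane receptor and a hormone stood among the 14 largest cardiomyocyte folds, of which 9 are given here. Ptgds, a prostaglandin D2 synthase, had 1008 ± 379 CPM in cardiomyocytes and 17.4 ± 7.66 CPM in non-myocytes (log2 5.85 ± 0.55). Ogdhl, a relative of the oxoglutarate dehydrogenase E1 subunit, had a log2 fold change of 5.88 ± 0.30. Paqr9, a membrane receptor of the progestin and adipoQ receptor family, stood at 5.88 ± 0.31. The muscle genes of this group were Mylk4, a myosin light chain kinase family member (5.87 ± 0.42), Cmya5, which encodes myospryn of the costamere (5.75 ± 0.27), and Ppp1r3a, the muscle subunit that brings protein phosphatase 1 to glycogen (5.79 ± 0.48). Nppb, the B-type natriuretic peptide, had 199.8, 284 and 80.1 CPM in cardiomyocytes, against 2.66, 6.13 and 1.62 CPM in non-myocytes (log2 5.75 ± 0.74). A transcript without a gene name was at 5.96 ± 0.27. These 9 folds, at 5.75 to 6.22, were picked for their size. Their place above 5.20, the median of the 15 cardiomyocyte markers, was therefore set by the choice. Ttn, the marker of largest fold, stood at 6.83 ± 0.38, above all 9.

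**Figure D2:**
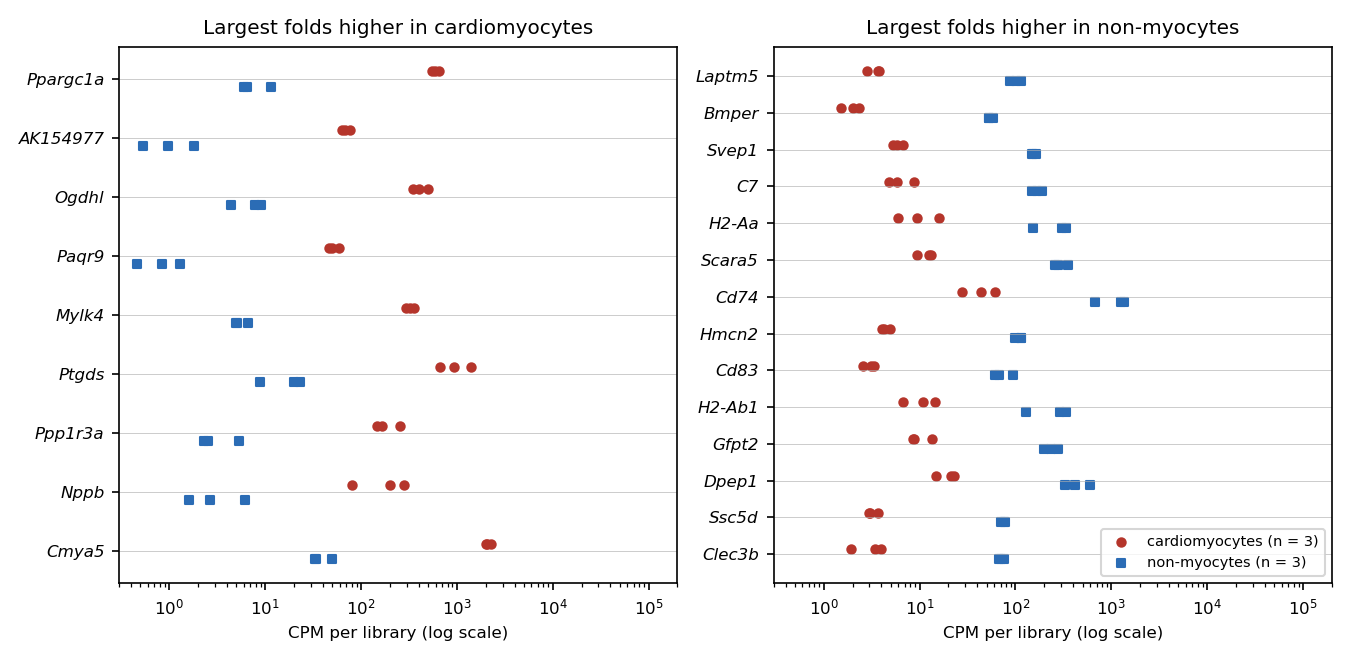
CPM on a log10 axis of 9 genes with the largest folds in cardiomyocytes and 14 in non-myocytes, with 1 point per cardiomyocyte library and per non-myocyte library. No gene's libraries overlap between the fractions, and the points of the genes higher in cardiomyocytes are spread over a wider range of CPM than those of the genes higher in non-myocytes.

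The non-myocyte genes named here are the 14 largest folds among genes that reached 50 CPM, did not overlap and were on no marker list. Genes outside these limits, such as Ccl3, had larger folds. Laptm5, a lysosomal membrane protein of blood-derived cells, had 3.81, 3.71 and 2.82 CPM in cardiomyocytes, against 100.1, 113 and 86.8 CPM in non-myocytes (log2 -4.85 ± 0.37, adjusted p = 1.6e-10, edgeR). It lies on chromosome 4 at 130913334 to 130936148 on the plus strand. Bmper, a secreted regulator of bone morphogenetic proteins, had 2.02, 1.51 and 2.31 CPM in cardiomyocytes, against 52.8, 53.3 and 58.3 CPM in non-myocytes (log2 -4.81 ± 0.39). For both genes every non-myocyte library lay far above every cardiomyocyte library. Major histocompatibility class II genes formed one group, with log2 fold changes of -4.67 ± 0.45 for H2-Aa, -4.55 ± 0.49 for H2-Ab1 and -4.63 ± 0.43 for Cd74, their invariant chain; Cd83, a surface protein of mature dendritic cells, was at -4.61 ± 0.54. Secreted and matrix proteins formed another, with Svep1 at -4.70 ± 0.42, the complement component C7 at -4.70 ± 0.40, Hmcn2 at -4.61 ± 0.27, Ssc5d at -4.52 ± 0.35 and Clec3b, which encodes tetranectin, at -4.51 ± 0.29. Scara5, a ferritin receptor, stood at -4.67 ± 0.28, Gfpt2, which feeds hexosamine synthesis, at -4.53 ± 0.36, and Dpep1, a membrane dipeptidase, at -4.53 ± 0.37. The non-myocyte folds, from -4.51 to -4.85, were likewise picked for their size. The median was -4.21 for the fibroblast markers and -4.41 for the macrophage markers.

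Promoter letters were compared between these size classes as a description. MEF2 factors switch on muscle genes from A and T rich boxes, and the letters searched were CTA and TAG with any 4 bases between them, which read the same on both strands. A or T was not required in those 4 bases, so the search was looser than a MEF2 site. A match to these letters is called the box here, whether or not MEF2 can bind it. Windows of 250 bases before to 50 after a gene start came from RefSeq on GRCm38.p6, and 10358 of the 15823 genes tested had at least 1. The box stood in 9.36% of the 203 windows of genes at least 32-fold higher in cardiomyocytes, in 5.68% of 1039 windows at least 8-fold higher in cardiomyocytes, in 2.49% of 1046 windows at least 8-fold higher in non-myocytes, in 3.04% of windows of all genes tested and in 3.69% of all 32851 windows in the table. Windows of 1 gene can overlap, so they are not independent, and in 54 of the 1211 windows with the box it overlapped a TATA box. The 5 windows below were chosen to show the box in genes described here, after their values were seen. The box is in capitals, and a gene with 2 boxes has both marked. Both boxes of Ldhb, the first of Fgf13 and the box of Des hold G or C among the 4 middle bases. Ppp1r3a is the glycogen subunit above, Mybpc3 a sarcomere marker and Fgf13 a growth factor family member. Ldhb and Des are described with their counterparts below. The windows are Ppp1r3a at chr6:14755225-14755524 (minus), Mybpc3 at chr2:91117894-91118193 (plus), Fgf13 at chrX:59585523-59585822 (minus), Ldhb at chr6:142507908-142508207 (minus) and Des at chr1:75360042-75360341 (plus), each written 5′ to 3′ toward the gene.
Ppp1r3a: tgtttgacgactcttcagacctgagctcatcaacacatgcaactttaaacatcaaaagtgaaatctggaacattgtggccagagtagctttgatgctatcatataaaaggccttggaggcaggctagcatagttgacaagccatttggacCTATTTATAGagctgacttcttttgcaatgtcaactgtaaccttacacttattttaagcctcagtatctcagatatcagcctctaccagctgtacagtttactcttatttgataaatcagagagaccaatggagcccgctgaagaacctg
Mybpc3: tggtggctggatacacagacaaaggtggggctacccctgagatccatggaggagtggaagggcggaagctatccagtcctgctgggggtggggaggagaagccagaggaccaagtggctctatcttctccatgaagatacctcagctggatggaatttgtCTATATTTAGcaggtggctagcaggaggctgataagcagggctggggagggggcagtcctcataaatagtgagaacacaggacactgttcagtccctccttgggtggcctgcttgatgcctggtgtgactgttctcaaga
Fgf13: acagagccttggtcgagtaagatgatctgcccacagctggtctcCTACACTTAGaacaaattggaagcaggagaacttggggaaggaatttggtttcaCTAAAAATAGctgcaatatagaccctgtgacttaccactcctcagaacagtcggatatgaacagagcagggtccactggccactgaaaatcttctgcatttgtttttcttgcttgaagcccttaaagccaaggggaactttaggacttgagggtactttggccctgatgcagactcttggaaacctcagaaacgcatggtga
Ldhb: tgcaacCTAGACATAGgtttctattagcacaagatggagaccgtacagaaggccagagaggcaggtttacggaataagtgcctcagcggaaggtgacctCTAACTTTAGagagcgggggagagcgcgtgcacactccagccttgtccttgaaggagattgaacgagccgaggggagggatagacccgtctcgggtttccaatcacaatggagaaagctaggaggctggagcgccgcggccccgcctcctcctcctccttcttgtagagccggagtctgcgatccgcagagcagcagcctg
Des: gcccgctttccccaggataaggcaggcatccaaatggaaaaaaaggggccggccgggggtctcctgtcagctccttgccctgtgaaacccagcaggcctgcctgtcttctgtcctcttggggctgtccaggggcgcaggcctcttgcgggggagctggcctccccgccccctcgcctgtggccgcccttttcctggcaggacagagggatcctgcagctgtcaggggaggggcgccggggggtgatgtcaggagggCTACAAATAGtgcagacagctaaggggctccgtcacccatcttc
The box starts 100 bases before the gene start in Ppp1r3a, where it overlaps a TATA box, and 90 bases before it in Mybpc3. In Fgf13 the first of both boxes starts 206 bases before the gene start, and in Ldhb 244 bases before it. In Des the box starts 6 bases after the gene start.

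Other letters were searched in the same windows on both strands. MCAT (CATTCC), read by TEAD factors, stood in 19.7% of the windows of genes at least 32-fold higher in cardiomyocytes, in 16.2% of those at least 8-fold higher in cardiomyocytes, in 13.4% of those at least 8-fold higher in non-myocytes and in 12.8% of the windows of all genes tested. For the E-box CAGCTG the shares were 25.1%, 19.1%, 19.5% and 16.0% in the same order of sets. The GATA letters AGATAA stood in 11.3%, 9.43%, 9.66% and 6.86%, and the TATA letters TATAAA in 14.8%, 9.43%, 12.3% and 7.67%. The ETS letters GGAAGT ran the other way, with 17.2%, 20.0%, 26.2% and 26.7%. In all 32851 windows the shares were 14.7% for MCAT, 16.3% for the E-box, 11.2% for GATA, 13.6% for TATA and 23.8% for ETS. The E-box and GATA shares of the 2 classes at least 8-fold higher thus lay close together. The letters searched as the MEF2 box were the more frequent in the cardiomyocyte class.

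Whole pathways of energy metabolism lay with cardiomyocytes. All but 2 of the 58 nuclear genes of oxidative phosphorylation were higher in cardiomyocytes, with a median log2 fold change of 3.82, beside -0.13 for all genes. Ndufa4, a subunit of the respiratory chain, had 466 ± 45.5 CPM in cardiomyocytes and 27.3 ± 1.34 CPM in non-myocytes, and Sdhb, the iron-sulfur subunit of succinate dehydrogenase, had 997 ± 46.3 CPM in cardiomyocytes and 57.6 ± 5.12 CPM in non-myocytes. The exceptions were both alternative forms: Ndufa4l2, a hypoxia-responsive relative of Ndufa4, had 4.003 ± 1.31 CPM in cardiomyocytes and 21.7 ± 1.18 CPM in non-myocytes, and Cox4i2, the alternative subunit 4 of cytochrome c oxidase, had 5.42 ± 0.977 CPM in cardiomyocytes and 22.7 ± 3.69 CPM in non-myocytes. Of 26 genes of the citric acid cycle and pyruvate oxidation 25 were higher in cardiomyocytes (median 3.99), among them Dlat of the pyruvate dehydrogenase complex at 4.15 ± 0.16 and Mdh2, the mitochondrial malate dehydrogenase, at 3.89 ± 0.16. Only Pdk3, one of the kinases that switch that complex off, was higher in non-myocytes, with 0.890 ± 0.117 CPM in cardiomyocytes and 3.92 ± 0.523 CPM in non-myocytes. Fatty acid oxidation had 25 of 29 genes higher in cardiomyocytes (median 4.05), and those of smallest p included Acads at 4.04 ± 0.16 and Cpt2 at 4.38 ± 0.18. The 4 members higher in non-myocytes were the acyl-CoA synthetases Acsl3 (-0.87), Acsl4 (-0.96) and Acsl5 (-2.45) and the liver form of carnitine palmitoyltransferase 1, Cpt1a (-1.25).

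Lipid handling outside the mitochondrion had members in both fractions. Of 25 genes of lipid uptake and storage 10 were higher in cardiomyocytes and 12 in non-myocytes, close to the 37.3% and 42.2% of all genes, with a median of 0.09 that became -0.88 with total-read scaling. Vldlr, the receptor for triglyceride-rich lipoproteins, had 1000.5 ± 48.4 CPM in cardiomyocytes and 44.3 ± 5.99 CPM in non-myocytes, and Plin5, the lipid droplet protein of oxidative tissue, had 399 ± 135 CPM in cardiomyocytes and 9.07 ± 2.06 CPM in non-myocytes. Apoe had 67.05 ± 6.27 CPM in cardiomyocytes and 1012 ± 32.4 CPM in non-myocytes, and Fabp5, the fatty acid binding protein of endothelial cells and macrophages, had 5.56 ± 0.0978 CPM in cardiomyocytes and 33.9 ± 7.35 CPM in non-myocytes. Cd36, the main fatty acid translocase of the heart, was among the 3 that did not pass, with 1605, 1674 and 1958 CPM in cardiomyocytes and 992, 1030.3 and 1724 CPM in non-myocytes (log2 0.48 ± 0.24). It passed in a fit of the 6 libraries alone, at 0.53, in that fit with replicate numbers as a block, at 0.57, and without non-myocyte replicate 3, at 0.79. Glycolysis and glycogen genes followed the mitochondria, with 28 of 34 higher in cardiomyocytes and 5 in non-myocytes (median 3.10). Hk2, the insulin-regulated hexokinase, stood at 4.92 ± 0.21, Ppp1r3c, a glycogen targeting subunit, at 4.63 ± 0.17 and the lactate and pyruvate carrier Slc16a1 at 4.08 ± 0.18. In non-myocytes Hk3, the hexokinase of myeloid cells, stood at -3.99 ± 0.41, the glucose transporter Slc2a3 at -2.81 ± 0.34 and Pfkfb3, which speeds glycolysis, at -2.44 ± 0.34. Gapdh, often used as a constant gene and named here after its values were seen, had 1904 ± 58.9 CPM in cardiomyocytes and 173 ± 12.3 CPM in non-myocytes (log2 3.46 ± 0.20).

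All 13 mitochondrially encoded genes were called higher in cardiomyocytes with a median of 2.90, and 12 with total-read scaling. The well-covered ones lay close together, with mt-Nd5 at 2.90 ± 0.27, mt-Nd6 at 3.12 ± 0.28 and mt-Cytb at 2.84 ± 0.27. Members such as mt-Co2, at 3.37 CPM in cardiomyocytes and 0.0215 CPM in non-myocytes, had few reads and are uncertain, since nuclear copies of mitochondrial sequence can take their reads. The median log2 fold change of the mitochondrially encoded genes was thus below the 3.82 of the nuclear genes of the same chain, a difference that was not tested. Of 26 iron, haem and oxidant defence genes 14 were higher in cardiomyocytes and 7 in non-myocytes, with a median of 1.32. With total-read scaling the counts were 13 and 11, with a median of 0.35. Prdx3 (3.86 ± 0.16), Sod2 (3.89 ± 0.17) and Prdx5 (3.45 ± 0.15), which work in mitochondria, were higher in cardiomyocytes, as was catalase, Cat (2.86 ± 0.13). Gpx3 (-1.53 ± 0.15) and Sod3 (-2.25 ± 0.22), both secreted, were higher in non-myocytes, as were Cp, the ferroxidase ceruloplasmin (-1.25 ± 0.14), and Gpx1 (-1.21 ± 0.14).

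**Figure D3:**
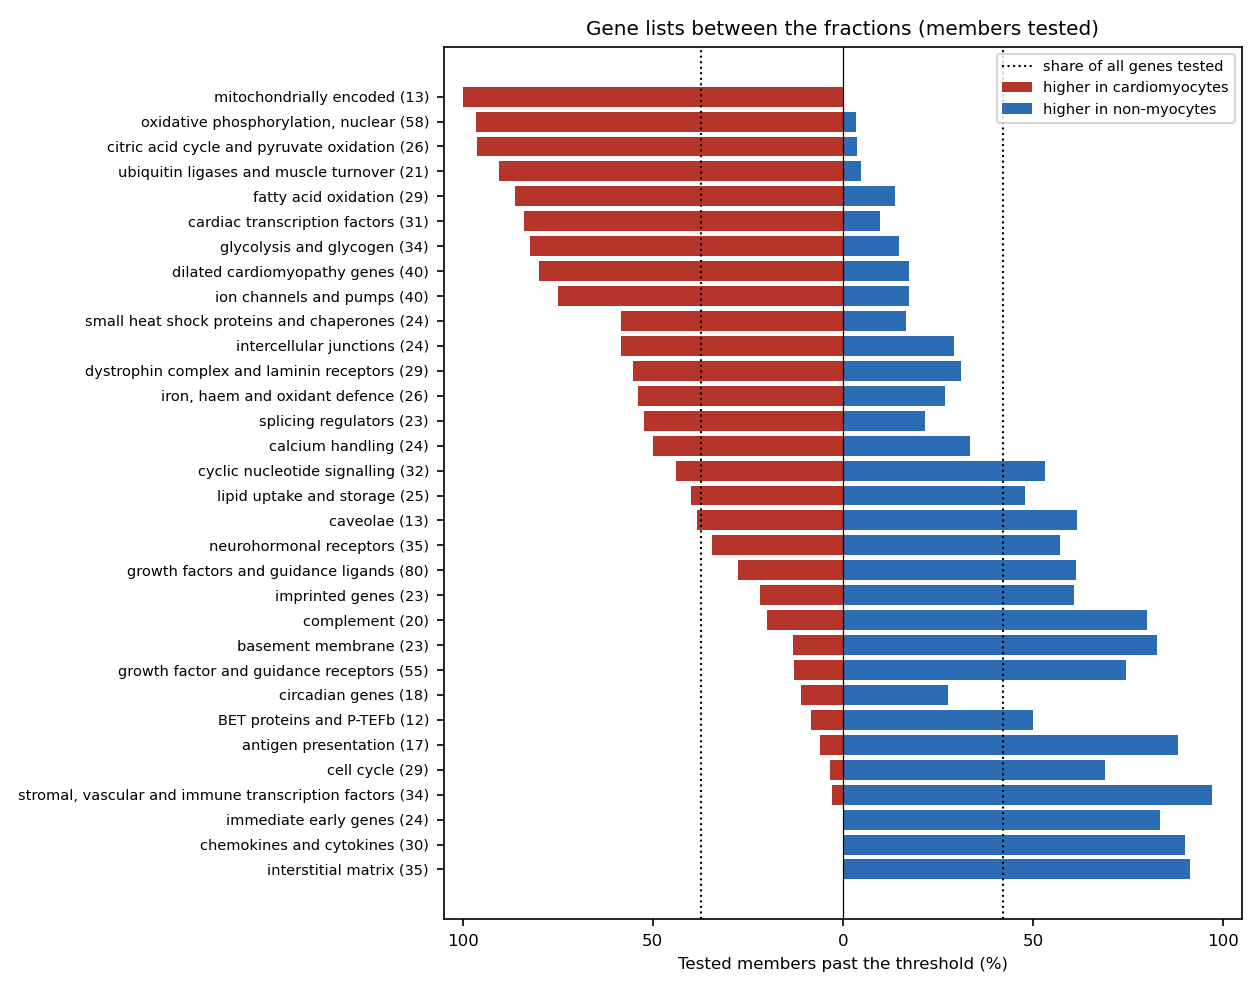
Share, in percent, of the tested members of each gene list that were called higher in cardiomyocytes (bars to the left of 0) or higher in non-myocytes (bars to the right), with the number tested in parentheses and dotted lines at the shares of all genes, 37.3% and 42.2%. Oxidative phosphorylation has 56 of 58 members on the cardiomyocyte side, and interstitial matrix has 32 of 35 members on the non-myocyte side and none on the other.

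For some steps of metabolism or structure, a muscle gene was the more abundant form in cardiomyocytes and a general gene in non-myocytes. The pairs were chosen for their muscle forms, so a higher muscle form in cardiomyocytes was largely set by that choice. For 30 pairs, levels were compared per gene length as RPKM, the deposited read counts divided by gene length and library size. Every one of the 30 muscle forms was higher in cardiomyocytes with TMM, with Dysf alone below 0 by total reads (-0.38), while 18 of the general forms were higher in non-myocytes and 11 in cardiomyocytes. The muscle form was the more abundant member in all 3 cardiomyocyte libraries for 28 pairs and the less abundant in all 3 non-myocyte libraries for 17, so that the order turned round in 15 pairs. Levels of muscle forms in non-myocytes stand beside the residue of cardiomyocyte markers there, a median of 5.30% by RPKM. The part of that residue in these levels, and so in the order within non-myocytes, was not tested. Actc1, cardiac actin, had 9342 ± 414 RPKM in cardiomyocytes and 505 ± 137 RPKM in non-myocytes, and Actb, its general counterpart, had 159 ± 17.7 RPKM in cardiomyocytes and 1442 ± 235 RPKM in non-myocytes. Desmin, encoded by Des, had 952 ± 34.4 RPKM in cardiomyocytes and 74.6 ± 12.9 RPKM in non-myocytes, and Vim, vimentin, had 34.2 ± 7.38 RPKM in cardiomyocytes and 601 ± 37.02 RPKM in non-myocytes. Eef1a2, a translation elongation factor of muscle and neurons, had 575 ± 25.1 RPKM in cardiomyocytes and 31.8 ± 5.16 RPKM in non-myocytes, and Eef1a1 had 128 ± 13.8 RPKM in cardiomyocytes and 1673 ± 63.8 RPKM in non-myocytes. For actin, the intermediate filament and the elongation factor, the more abundant transcript was thus a different gene in each fraction. Rpl3l, the muscle form of a protein of the large ribosomal subunit, had 123 ± 7.01 RPKM in cardiomyocytes and 6.88 ± 1.76 RPKM in non-myocytes, and Rpl3 had 16.6 ± 1.85 RPKM in cardiomyocytes and 82.8 ± 6.76 RPKM in non-myocytes. With TMM the ribosomal protein genes as a whole did not share this split. Of 81 tested 19 were higher in cardiomyocytes and 14 in non-myocytes, beside 37.3% and 42.2% of all genes. Their median log2 fold change with TMM was -0.02. The median of all genes was -0.13 with TMM and -1.10 with total reads.

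Among transporters and enzymes of the pairs, Slc2a4, the insulin-regulated glucose transporter, had 169 ± 12.9 RPKM in cardiomyocytes and 12.3 ± 2.93 RPKM in non-myocytes, and Slc2a1 had 7.29 ± 1.77 RPKM in cardiomyocytes and 9.68 ± 0.816 RPKM in non-myocytes. Cpt1b had 294 ± 6.30 RPKM in cardiomyocytes and 13.2 ± 4.47 RPKM in non-myocytes, and Cpt1a had 10.02 ± 0.398 RPKM in cardiomyocytes and 46.7 ± 3.39 RPKM in non-myocytes. Ldhb and Ldha, the lactate dehydrogenase chains, were both higher in cardiomyocytes by the test. Ldhb had 864 ± 28.9 RPKM in cardiomyocytes and 65.8 ± 9.98 RPKM in non-myocytes, and Ldha had 425 ± 34.2 RPKM in cardiomyocytes and 144 ± 4.25 RPKM in non-myocytes. Ldhb, the heart chain, was counted as the muscle form of this pair and Ldha as the general form. Ldhb was thus the more abundant in cardiomyocytes and Ldha in non-myocytes. The ratio was higher in cardiomyocytes for 29 of the 30 pairs, with a median difference over all 30 pairs of 5.58 on the log2(RPKM + 0.1) scale. Dysf, the membrane repair protein dysferlin, had 25.3 ± 2.63 RPKM in cardiomyocytes and 32.98 ± 3.000 RPKM in non-myocytes; by TMM it was higher in cardiomyocytes (log2 0.59 ± 0.15), while its RPKM, which carries no TMM factor, averaged lower there. Cox6a1 (-0.031), Eno1 (-0.44) and Slc2a1 (-0.41), general forms called higher in cardiomyocytes with TMM, also turned negative with total-read scaling, and Slc2a1 did not pass without any 1 of cardiomyocyte replicates 2 and 3 and non-myocyte replicates 1 and 2 (0.38 to 0.55).

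**Figure D4:**
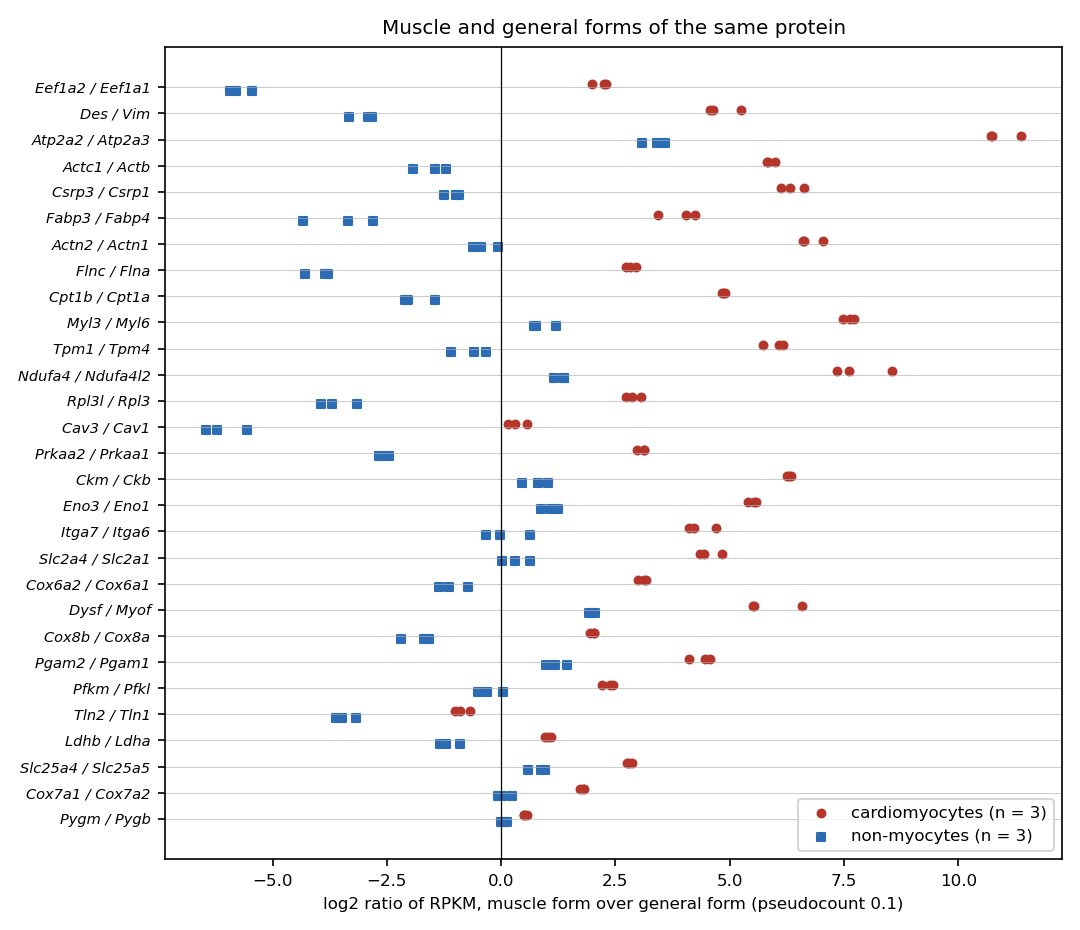
Log2 ratio of muscle form to general form, from RPKM with a pseudocount of 0.1, for 29 gene pairs, with 1 point per cardiomyocyte library and per non-myocyte library and a line at equal levels. In 15 pairs all cardiomyocyte points lie on the muscle side of the line and all non-myocyte points on the general side.

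Ion channel and pump genes lay mainly with cardiomyocytes, whereas calcium handling genes were found on both sides. Of 40 ion channel and pump genes 30 were higher in cardiomyocytes and 7 in non-myocytes (median 3.61), beside 37.3% and 42.2% of all genes. Abcc8 and Kcnj11, receptor and pore of an ATP-sensitive potassium channel, stood at 5.66 ± 0.24 and 5.42 ± 0.24, the pacemaker family member Hcn2 at 5.14 ± 0.21 and the leak channel Kcnk3 at 5.56 ± 0.27. The channels higher in non-myocytes included Trpv2 (-2.22 ± 0.24), Cacna1h (-2.30 ± 0.26) and Trpv4 (-2.67 ± 0.33), which pass calcium. Kcna5, an atrial and vascular potassium channel named here after its values were seen, had 29.4 ± 6.23 CPM in cardiomyocytes and 109 ± 24.4 CPM in non-myocytes. In calcium handling 12 of 24 genes were higher in cardiomyocytes and 8 in non-myocytes (median 1.05, and 0.09 with total-read scaling). With total-read scaling the counts were 11 and 12. Jph2, which ties the surface membrane to the sarcoplasmic reticulum, had 1271 ± 41.8 CPM in cardiomyocytes and 64.1 ± 11.4 CPM in non-myocytes, and Casq2, the calcium buffer of that store, had 853 ± 56.8 CPM in cardiomyocytes and 36.3 ± 2.08 CPM in non-myocytes. Pln, which restrains the calcium pump of the store and is the gene mutated elsewhere in the study, had 4612, 4469 and 4419 CPM in cardiomyocytes, against 115, 143 and 107 CPM in non-myocytes. Stim1 (-2.16 ± 0.19), the sensor of store-operated calcium entry, and Itpr3 (-2.32 ± 0.24), a receptor for inositol trisphosphate, were higher in non-myocytes.

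Inherited disease genes lay mainly with cardiomyocytes, and cell contact genes did so with TMM. Of 24 junction genes 14 were higher in cardiomyocytes and 7 in non-myocytes (median 1.93), beside 37.3% and 42.2% of all genes. With total-read scaling the junction counts were 12 and 10 (median 0.97). The desmosome genes Dsp (5.56 ± 0.26), Pkp2 (5.03 ± 0.24) and Dsg2 (4.66 ± 0.23) and N-cadherin, Cdh2 (5.09 ± 0.24), were all higher in cardiomyocytes. Jup, plakoglobin, which serves both desmosomes and adherens junctions, did not pass, with 593 ± 44.6 CPM in cardiomyocytes and 557 ± 58.1 CPM in non-myocytes. The gap junction genes Gja4 (-2.26 ± 0.24) and Gjc1 (-1.75 ± 0.20), known from vessels and conduction tissue, were higher in non-myocytes. Of 40 genes in which mutations cause dilated cardiomyopathy 32 were higher in cardiomyocytes, with a median of 4.42. Nexn, a Z-disc protein, stood at 5.02 ± 0.22 and Rbm20, the splicing factor of titin, at 5.57 ± 0.27. The 7 higher in non-myocytes included Lama4 (-2.39 ± 0.22), a laminin chain of vessels, Ilk (-0.84 ± 0.08), integrin-linked kinase, Tmpo (-1.46 ± 0.16), a nuclear lamina protein, and Eya4 (-2.88 ± 0.65). Emd, emerin of the nuclear membrane, did not pass, with 31.4 ± 2.75 CPM in cardiomyocytes and 28.4 ± 1.73 CPM in non-myocytes. The dystrophin complex and laminin receptors had 16 of 29 genes higher in cardiomyocytes and 9 in non-myocytes, with a median of 0.85 that became -0.12 with total-read scaling. Its sarcoglycans were divided: Sgcb (2.22 ± 0.10) was higher in cardiomyocytes, whereas Sgce (-3.22 ± 0.18) was higher in non-myocytes. Of 13 caveola genes 5 were higher in cardiomyocytes and 8 in non-myocytes, beside 37.3% and 42.2% of all genes. The 5 included Cav3 (4.56 ± 0.27) and Murc (5.33 ± 0.34), and the 8 included Ptrf (-1.35 ± 0.12) and Ehd2 (-2.27 ± 0.24).

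Ligands and receptors lay mostly with non-myocytes. Of 80 growth factor and guidance ligands tested 22 were higher in cardiomyocytes and 49 in non-myocytes (median -1.77). Fgf13, an intracellular member of the fibroblast growth factor family that binds sodium channels, had 55.7, 45.2 and 46.4 CPM in cardiomyocytes, against 1.20, 1.42 and 1.03 CPM in non-myocytes. Its promoter window is shown above. Vegfa and Vegfb, which act on endothelial cells, were both higher in cardiomyocytes. Vegfa had 534 ± 118 CPM in cardiomyocytes and 58.2 ± 8.42 CPM in non-myocytes (log2 3.19 ± 0.19), and Vegfb had 457 ± 6.65 CPM in cardiomyocytes and 26.4 ± 3.26 CPM in non-myocytes (log2 4.11 ± 0.21). Fgf1, which is secreted without a signal peptide, stood at 4.58 ± 0.24. The ligands higher in non-myocytes included the Notch ligand Jag1 (-2.29 ± 0.16), Fstl1 (-4.03 ± 0.29) and Penk, the precursor of enkephalins (-4.26 ± 0.36). Igf1, a growth factor named here after its values were seen, had 2.61 ± 1.04 CPM in cardiomyocytes and 51.02 ± 1.67 CPM in non-myocytes.

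Of 55 growth factor and guidance receptors 7 were higher in cardiomyocytes and 41 in non-myocytes (median -1.74). Erbb4, the neuregulin receptor of heart muscle, had 10.1, 6.96 and 9.22 CPM in cardiomyocytes, against 0.133, 0.452 and 0.129 CPM in non-myocytes, and Erbb3, its partner, had 21.8 ± 5.33 CPM in cardiomyocytes and 4.91 ± 0.516 CPM in non-myocytes. Insr, the insulin receptor, had 324 ± 16.6 CPM in cardiomyocytes and 73.9 ± 9.08 CPM in non-myocytes (log2 2.13 ± 0.15), and Bmpr1a stood at 1.03 ± 0.11. Igf1r, the receptor for Igf1, did not pass, with 104 ± 46.98 CPM in cardiomyocytes and 129 ± 20.1 CPM in non-myocytes (log2 -0.31 ± 0.28), except without cardiomyocyte replicate 3 (-0.73). Fgfr1 (-2.81 ± 0.17), Acvrl1 (-2.49 ± 0.19), Notch2 (-1.66 ± 0.13) and Tgfbr2 (-2.83 ± 0.22) were higher in non-myocytes. Of 35 neurohormonal receptors 12 were higher in cardiomyocytes and 20 in non-myocytes (median -1.24), beside 37.3% and 42.2% of all genes. Chrm2, the muscarinic receptor of vagal slowing, stood at 5.34 ± 0.24, the alpha-1 adrenergic receptors Adra1a and Adra1b at 5.02 ± 0.29 and 4.86 ± 0.31, and Gpr22, an orphan receptor of the heart, at 5.50 ± 0.47. Adrb1, a beta adrenergic receptor named here after its values were seen, had 15.2 ± 2.46 CPM in cardiomyocytes and 2.82 ± 0.566 CPM in non-myocytes. Ace, which makes angiotensin II on endothelium, was higher in non-myocytes at -3.61 ± 0.28, while Agtr1a, a receptor for that peptide and also named after its values were seen, was higher in cardiomyocytes at 2.46 ± 0.22. Calcrl (-2.52 ± 0.21), a receptor for adrenomedullin and calcitonin gene-related peptide, and Ptgir (-3.39 ± 0.32), the prostacyclin receptor, were higher in non-myocytes.

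Signalling by cyclic nucleotides had 14 of 32 genes higher in cardiomyocytes and 17 in non-myocytes (median -0.79), beside 37.3% and 42.2% of all genes. Adenylyl cyclases were divided, with Adcy5 at 2.98 ± 0.18 and Adcy7 and Adcy3 at -3.98 ± 0.32 and -2.58 ± 0.25. Prkaca, a catalytic subunit of protein kinase A, stood at 2.62 ± 0.12, and Akap6, which anchors the kinase at the nuclear envelope, at 4.64 ± 0.23. The phosphodiesterases Pde1a (-3.44 ± 0.28) and Pde5a (-2.89 ± 0.27) were higher in non-myocytes. Among 21 muscle turnover genes 19 were higher in cardiomyocytes, with a median of 5.29, the largest of the lists. Members were listed for a part in muscle turnover, so a higher level in cardiomyocytes was largely set by that choice. Klhl31 (5.60 ± 0.25), Asb10 (4.87 ± 0.22), Trim72 (5.62 ± 0.27) and Asb18 (6.17 ± 0.35) had the smallest p. Cblb, a ubiquitin ligase known from immune signalling, was the member higher in non-myocytes, at -0.88 ± 0.25.

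Transcription factors were listed by lineage, so the side on which each list fell was largely set by that choice. Of 31 cardiac factors 26 were higher in cardiomyocytes and 3 in non-myocytes (median 2.31), or 21 and 7 with total-read scaling (median 1.35). Nuclear receptors of energy metabolism were among them: Esrrg had 98.2 ± 4.92 CPM in cardiomyocytes and 2.15 ± 0.243 CPM in non-myocytes, Esrra had 255 ± 24.9 CPM in cardiomyocytes and 24.9 ± 3.19 CPM in non-myocytes, and Ppara had 343 ± 6.59 CPM in cardiomyocytes and 9.43 ± 1.75 CPM in non-myocytes. The developmental factors Tbx5, Hand2 and Gata4 stood at 3.70 ± 0.42, 3.13 ± 0.27 and 1.83 ± 0.17. Tbx20 did not pass, with 201, 208 and 185 CPM in cardiomyocytes and 217, 195 and 141 CPM in non-myocytes (log2 0.10 ± 0.19, and -0.86 with total-read scaling). Mef2c did not pass either, with 81.5 ± 13.8 CPM in cardiomyocytes and 78.4 ± 6.77 CPM in non-myocytes (log2 0.05 ± 0.14, and -0.92 with total-read scaling). With TMM the test thus did not separate the fractions for these factors, both of which are often read as cardiomyocyte genes. With total-read scaling both were called higher in non-myocytes. Mkl1 (-1.52 ± 0.16), a serum response factor coactivator, Hey2 (-1.95 ± 0.22) and Tead4 (-1.91 ± 0.28) were higher in non-myocytes. Of 34 stromal, vascular and immune factors 33 were higher in non-myocytes (median -2.28), such as Maf (-2.90 ± 0.21), Heyl (-3.04 ± 0.22), Nr2f2 (-2.46 ± 0.22) and Irf8 (-2.97 ± 0.28). Prrx1, known as a mesenchymal factor, was the other one, with 49.7 ± 2.80 CPM in cardiomyocytes and 27.5 ± 2.86 CPM in non-myocytes (log2 0.86 ± 0.12, but -0.11 with total-read scaling).

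Matrix and immune genes were non-myocyte transcripts almost throughout. None of 35 interstitial matrix genes was higher in cardiomyocytes and 32 were higher in non-myocytes (median -3.80), among them the protease Mmp2 (-4.41 ± 0.31), its inhibitor Timp2 (-3.01 ± 0.23), the crosslinking enzyme Loxl2 (-4.12 ± 0.30) and Col6a1 (-4.11 ± 0.30). Ctgf, a matricellular protein often read as a fibroblast product, did not pass, with 360.4, 345 and 222 CPM in cardiomyocytes and 308, 246 and 286 CPM in non-myocytes (log2 0.14 ± 0.41). The basement membrane, which both fractions touch, had 19 of 23 genes higher in non-myocytes (median -2.56), and the exceptions were laminin chains. Lamb3 had 36.2 ± 11.4 CPM in cardiomyocytes and 2.19 ± 0.689 CPM in non-myocytes, Lama5 stood at 1.63 ± 0.22, and Lamb2 at 0.92 ± 0.13, or -0.046 with total-read scaling. Of 30 chemokines and cytokines 27 were higher in non-myocytes and none in cardiomyocytes (median -4.06), and those of smallest p were Cxcl14 (-4.61 ± 0.35), Il16 (-3.09 ± 0.27), Ccl11 (-4.26 ± 0.38) and Ccl3 (-5.17 ± 0.51). Of 17 antigen presentation genes 15 were higher in non-myocytes (median -1.80), and Psmb10, a subunit of the immunoproteasome, was higher in cardiomyocytes (0.89 ± 0.23, but -0.077 with total-read scaling).

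Of 20 complement genes 16 were higher in non-myocytes and 4 in cardiomyocytes (median -3.44), beside 42.2% and 37.3% of all genes, such as the inhibitor Serping1 (-3.95 ± 0.32) and the receptors C5ar1 (-4.75 ± 0.40) and C3ar1 (-4.27 ± 0.37). Those higher in cardiomyocytes were the protease gene Masp1, the chaperone and complement inhibitor clusterin, the membrane inhibitor Cd59a and the protease Cfd. Masp1 had 32.9, 26.8 and 32.3 CPM in cardiomyocytes, against 3.39, 3.49 and 2.98 CPM in non-myocytes. Clu had 630.5, 612 and 636 CPM in cardiomyocytes, against 79.4, 102 and 67.8 CPM in non-myocytes. For both, every cardiomyocyte library lay above every non-myocyte library. Cd59a stood at 1.89 ± 0.27, and Cfd, an adipocyte product, at 2.31 ± 0.79. None of the 5 adipocyte markers passed the filter, but their summed level was 1.55, 1.97 and 1.41 CPM in cardiomyocytes, against 0.200, 0.452 and 0.323 CPM in non-myocytes, higher in every cardiomyocyte library as for Cfd; their part in its level was not tested.

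Of 23 splicing regulators 12 were higher in cardiomyocytes and 5 in non-myocytes, with a median of 0.31 that became -0.65 with total-read scaling. Rbm38 (3.92 ± 0.19), Rbfox1 (5.17 ± 0.30) and Rbpms (1.69 ± 0.11) were higher in cardiomyocytes, and Ptbp1 (-2.07 ± 0.18), which represses muscle exons, and Nova2 (-2.04 ± 0.27), known from neurons and vessels, in non-myocytes. Of 23 imprinted genes 5 were higher in cardiomyocytes and 14 in non-myocytes (median -1.46). Snrpn, of the Prader-Willi region, had 72.8 ± 5.43 CPM in cardiomyocytes and 6.91 ± 0.968 CPM in non-myocytes, while Ndn of the same region had 5.94 ± 0.833 CPM in cardiomyocytes and 41.4 ± 6.50 CPM in non-myocytes. Meg3 and Rian, non-coding RNAs of the Dlk1 domain, stood at -4.22 ± 0.30 and -4.02 ± 0.35. Gnas (0.87 ± 0.10) was higher in cardiomyocytes with TMM, but at -0.10 with total-read scaling. Of 29 cell cycle genes 20 were higher in non-myocytes (median -1.06), such as the replication genes Mcm3 (-2.17 ± 0.25) and Mcm6 (-3.36 ± 0.36). Ccnd2, a D-type cyclin, was higher in cardiomyocytes (0.38 ± 0.16), or at -0.58 with total-read scaling, and it did not pass without cardiomyocyte replicate 1 (0.38), cardiomyocyte replicate 2 (0.33) or non-myocyte replicate 3 (0.19). Of 18 circadian genes 11 were not called, 2 were higher in cardiomyocytes, Nfil3 (1.63 ± 0.61) among them, and 5 in non-myocytes, Per1 (-1.42 ± 0.39) and Nr1d1 (-0.98 ± 0.28) among them. With total-read scaling 13 of the 18 circadian genes were higher in non-myocytes and 1 in cardiomyocytes (median -1.29). Nfil3 did not pass without cardiomyocyte replicate 1 (1.08), non-myocyte replicate 2 (1.40) or non-myocyte replicate 3 (1.34). The labels do not give the hour of killing.

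BET proteins, the targets of JQ1, read acetylated histones and recruit P-TEFb, the kinase that releases paused polymerase. Brd3 stood at -0.55 ± 0.10 and Brd2 at -0.32 ± 0.10, so that both were higher in non-myocytes by less than 2-fold. The kinase Cdk9 had 22.6 ± 1.56 CPM in cardiomyocytes and 50.9 ± 3.45 CPM in non-myocytes, its cyclin Ccnt1 stood at -0.45 ± 0.13, and the inhibitor Hexim1 at -0.42 ± 0.15. Hexim1 did not pass in the 6 libraries alone (-0.37), nor without cardiomyocyte replicate 2 (-0.36) or non-myocyte replicate 3 (-0.18). Larp7, which holds the inactive kinase in its RNA complex, was the member higher in cardiomyocytes, at 1.09 ± 0.17. Of the 12 genes 6 were thus higher in non-myocytes and 5 were not called, beside 42.2% of all genes higher in non-myocytes; with total-read scaling 10 were higher in non-myocytes and none in cardiomyocytes.

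Immediate early genes, which cells switch on within minutes of a stimulus, were higher in non-myocytes in 20 of 24 cases and higher in cardiomyocytes in none (median -1.69). Ier2 (-1.84 ± 0.20), Egr2 (-2.93 ± 0.36), Zfp36 (-2.22 ± 0.28) and Junb (-2.01 ± 0.26) had the smallest p. Jun did not pass at -0.51 ± 0.24, but did in the 6 libraries alone (-0.47), there with the replicate block (-0.45), without cardiomyocyte replicate 1 (-0.63) and without non-myocyte replicate 2 (-0.68). Atf3 did not pass either (log2 0.90 ± 0.55, but 0.94 in the 6 libraries alone and 0.85 with the block, where it did); it had 388, 197 and 165 CPM in cardiomyocytes and 156, 116 and 132 CPM in non-myocytes. Both fractions, however, stood far above intact tissue. On a scale set over the 6 fraction libraries and 6 ventricle libraries together, Fos had 225, 206 and 277 CPM in cardiomyocytes and 431, 305 and 563 CPM in non-myocytes, against 0.968, 1.57 and 4.18 CPM in ventricle at 8 weeks and 1.29, 0.959 and 2.29 CPM at 20 weeks. Egr1 had 382 ± 72.7 CPM in cardiomyocytes and 1200.2 ± 234 CPM in non-myocytes, against 17.3 ± 2.59 CPM in ventricle at 8 weeks and 11.8 ± 3.02 CPM at 20 weeks. Hspa1a, an inducible heat shock protein, had 356 ± 93.1 CPM in cardiomyocytes and 799 ± 280.0 CPM in non-myocytes, against 3.63 ± 2.15 CPM in ventricle at 8 weeks and 5.39 ± 4.81 CPM at 20 weeks. For 19 of the 24 immediate early genes (79.2%) all 6 ventricle libraries lay below all 6 fraction libraries, beside 341 of 15573 genes in all (2.19%). The same held for 7 of 24 chaperone genes (29.2%). By total reads these counts were 19 immediate early genes, 8 chaperone genes and 323 genes in all. Ages, tables and preparation differed between ventricle and fractions, and these cannot be told apart, so no test was made.

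**Figure D5:**
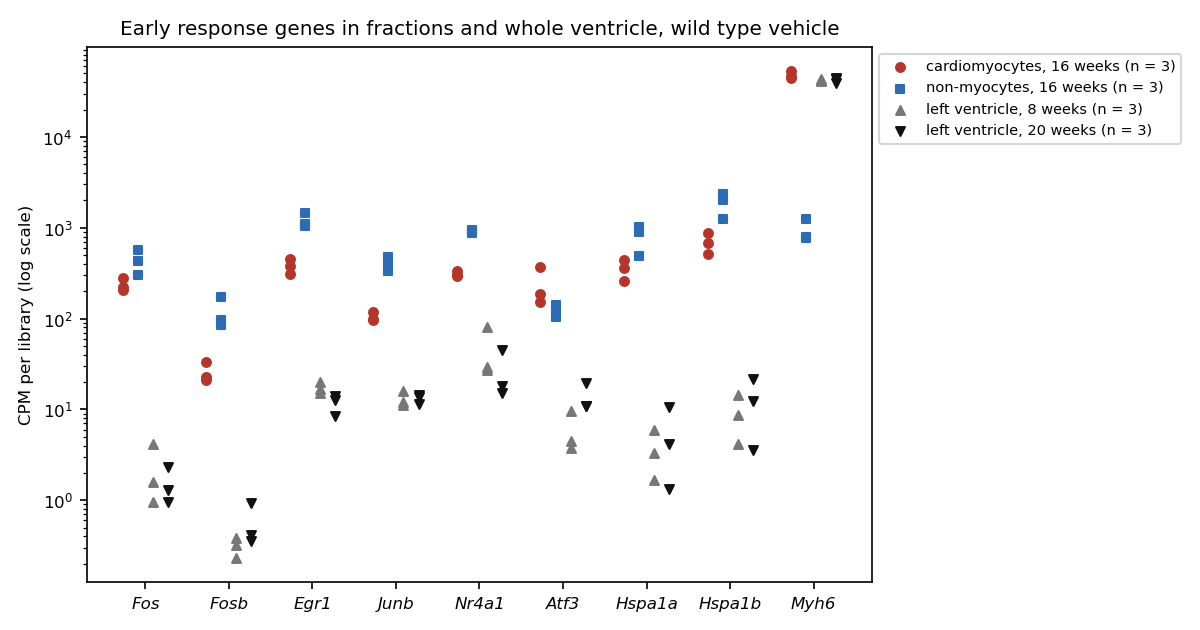
CPM on a log10 axis of immediate early and heat shock genes in wild type vehicle cardiomyocytes, non-myocytes and left ventricle at 8 and 20 weeks, with 1 point per library and 3 libraries per group. For Fos the 6 fraction libraries lie between 206 and 563 CPM and the 6 ventricle libraries between 0.959 and 4.18 CPM.

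Between the fractions themselves the chaperones were mixed, with 14 of 24 higher in cardiomyocytes and 4 in non-myocytes (median 1.03, and 0.06 with total-read scaling). The muscle small heat shock proteins Hspb2 (4.23 ± 0.27) and Hspb8 (4.12 ± 0.28) and Smyd1, a methyltransferase of the myosin folding machinery (5.39 ± 0.38), were higher in cardiomyocytes. Hspa1b (-1.52 ± 0.40), Hspa1a (-1.23 ± 0.40) and Hspa2 (-0.78 ± 0.15) were higher in non-myocytes. Hspa8, the constitutive member, did not pass, with 1026 ± 139 CPM in cardiomyocytes and 877 ± 275 CPM in non-myocytes. Some splicing regulators differed from tissue in the opposite sense. On the joint scale 5 of 23 (21.7%) had all ventricle libraries above all fraction libraries, beside 359 genes in all (2.31%). By total reads 3 of 23 did, beside 447 genes in all.

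The same contrast was made in the 18 fraction libraries of the other conditions. Their values are separate from the wild type vehicle levels, but all were fitted together, so the calls share 1 filter and 1 estimate of spread. Of the 5907 genes higher in wild type vehicle cardiomyocytes, 90.9% were called the same way with JQ1 in wild type, where 37.5% of all genes were higher in cardiomyocytes. In PLNR9C with vehicle the share was 87.8%, beside 37% of all genes, and in PLNR9C with JQ1 it was 87.5%, beside 37.2%. Of the 6679 genes higher in non-myocytes, 87.9%, 87.6% and 77.0% were called the same way in these conditions in the same order, beside 40.5%, 42.2% and 36.3% of all genes. In all 3 conditions 4774 of the cardiomyocyte genes (80.8%) and 4762 of the non-myocyte genes (71.3%) kept their call. Genes at least 8-fold higher in cardiomyocytes kept a median log2 fold change of 3.43 with JQ1 in wild type and 3.88 and 3.89 in PLNR9C with vehicle and with JQ1, beside 4.06 in wild type with vehicle. Genes at least 8-fold higher in non-myocytes had medians of -3.19, -3.09 and -2.10 in these conditions, beside -3.88 in wild type with vehicle. Both sets were chosen by their fold in wild type with vehicle, so smaller medians elsewhere follow in part from that choice. How much of the fall it makes up was not tested.

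The contrast itself differed past the threshold for 487 genes (3.08%) with JQ1 in wild type, for 1318 genes (8.33%) in PLNR9C with vehicle and for 3045 genes (19.2%) in PLNR9C with JQ1. For the 28 genes of largest fold, 16 of 84 such differences passed. These genes were chosen by their fold in wild type with vehicle, which by itself makes a smaller fold elsewhere more likely. The marker sums moved too: fibroblast markers in cardiomyocyte libraries summed to 1268 to 1751 CPM with JQ1 in wild type, to 2258 to 3157 CPM in PLNR9C with vehicle and to 2912 to 8938 CPM in PLNR9C with JQ1, against 675 to 873 CPM in wild type with vehicle. Macrophage markers in cardiomyocyte libraries summed to 64.2 to 97.1, 329.9 to 416 and 330.1 to 994 CPM in the same conditions, against 58.7 to 81.1 CPM in wild type with vehicle. Cardiomyocyte markers in non-myocyte libraries summed to 8437 to 10854 CPM with JQ1 in wild type, to 2198 to 2867 CPM in PLNR9C with vehicle and to 1690 to 4639 CPM in PLNR9C with JQ1, against 3368 to 5148 CPM in wild type with vehicle. The part of these sums in the smaller non-myocyte folds of those conditions was not tested. Laptm5, for instance, had log2 fold changes of -4.04 with JQ1 in wild type, -3.38 in PLNR9C with vehicle and -2.34 in PLNR9C with JQ1, against -4.85 in wild type with vehicle. Ppargc1a had 4.94, 5.38 and 6.44 in the same conditions, against 6.22 in wild type with vehicle. Both genes were named for their large fold in wild type with vehicle.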

How the data were processed

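RNA from pooled cardiomyocytes and pooled non-myocytes was extracted with TRIzol and made into libraries with Nextera reagents, per the labels' protocols. The authors deposited 1 read count per gene and library, per the file headers, and a normalized value beside it. That deposited value was treated as RPKM, since for all 8250 genes with at least 50 reads in every library it gave 1 gene length within 0.1%. The submitters' processing notes name STAR 2.4.1b, GRCm38 and mm10, without their roles; the counting tool and its use of strand were not stated, so overlapping genes cannot be told apart.

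Counts of the 24 fraction libraries (8 groups of 3) were fitted in edgeR 4.0.16 (R 4.3.3) with filterByExpr, which kept 15823 of 31741 genes, TMM, robust glmQLFit and glmQLFTest, and p-values were adjusted by Benjamini-Hochberg. The standard error is the log2 fold change divided by the square root of F. With depths of 10589355 to 11719727 reads, values rest on 3 libraries per group and p-values on the spread between them. Counts of 15253 genes were also simulated, with the same mean profile in every group, a fixed dispersion and few changed genes, balanced between directions. In them 81 of 100 genes changed by 1 on the log2 scale and 97 of 100 changed by 3 were recovered, with 12 false calls. In the real contrast most genes differed and the TMM factors lay far apart. The simulation held neither, so it checks the code and gives no recovery rate for this contrast. Same-numbered cardiomyocyte and non-myocyte libraries deviated together (r of 0.20, 0.13 and 0.27), so the numbers were taken as pairs and a replicate block was fitted as an alternative. Motifs and sums were computed in Python 3.11.15 with pandas 2.3.3.

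Named were the 14 largest folds in each direction (called, at least 50 CPM in the higher fraction, no overlap, not a predicted gene, a mitochondrial gene or a listed marker), up to 4 members of each list and direction by smallest p, members that did not pass, all 30 gene pairs, defining markers and a fixed set that includes Pln, Nppb, Gata4, Tbx20, Vegfa, Fos and Egr1. Some genes that this rule selects are not reported here. Genes named after their values were seen are said to be so where they appear. The samples, the 32 gene lists and the 14 marker lists were chosen with earlier results of these data known. Alternatives were DESeq2 1.42.0, RLE factors, total reads, removal of mitochondrial genes, no filter, the 6 libraries alone, the block, leaving out each library and glmTreat at a fold of 2. Ventricle values by total reads were added after seeing the data.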

Additional observations from a re-analysis of the deposited data

Results flagged for a closer look

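Of 1073 genes named or listed, 7 were called in opposite directions in wild type vehicle libraries and in another condition, with a difference between the 2 contrasts that passed in edgeR's quasi-likelihood test over all genes. Each log2 fold change is cardiomyocytes minus non-myocytes, and each difference is the other condition minus wild type vehicle.

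With JQ1 in wild type, Cdk6, a cell cycle kinase, was at 0.71 ± 0.20, against -1.01 ± 0.19 with vehicle, a difference of 1.71 (adjusted p = 0.0016). Ciita, the activator of class II genes, was at 0.94 ± 0.40, against -1.75 ± 0.33 with vehicle, a difference of 2.69 (adjusted p = 0.0071). Kcnq1ot1, an imprinted non-coding RNA, was at -0.48 ± 0.15, against 0.40 ± 0.15 with vehicle, a difference of -0.88 (adjusted p = 0.028).

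In PLNR9C with vehicle, Bdkrb2, a bradykinin receptor, was at 1.28 ± 0.36, against -1.77 ± 0.43 in wild type, a difference of 3.05 (adjusted p = 0.0014). Cspg4, a pericyte marker, was at 1.04 ± 0.25, against -1.56 ± 0.25 in wild type, a difference of 2.60 (adjusted p = 9.9e-05). Krt18, a keratin on the epicardial list, was at 1.60 ± 0.31, against -1.59 ± 0.40 in wild type, a difference of 3.19 (adjusted p = 0.00037). Sema3a, a guidance ligand, was at -0.90 ± 0.35, against 0.86 ± 0.33 in wild type, a difference of -1.76 (adjusted p = 0.025).

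In PLNR9C with JQ1, Krt18 was at 0.99 ± 0.35, a difference of 2.59 (adjusted p = 0.0022), and Kcnq1ot1 was at -0.45 ± 0.15, a difference of -0.85 (adjusted p = 0.010). Marker sums also differ between these libraries, as given above, and their part in these differences was not tested.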

How the results depend on the processing

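With total reads as the only scaling, 3178 genes were higher in cardiomyocytes and 10419 in non-myocytes, and at least 8-fold 672 and 2804. Under it the log2 fold changes of Abcc9 (-0.11), Ccnd2 (-0.58), Cox6a1 (-0.031), Dysf (-0.38), Emd (-0.82), Eno1 (-0.44), Gnas (-0.10), Hspa8 (-0.74), Impact (-0.22), Jup (-0.88), Lamb2 (-0.046), Mef2c (-0.92), Prrx1 (-0.11), Psmb10 (-0.077), Slc2a1 (-0.41) and Tbx20 (-0.86) turned negative, and 387 of 418 named genes kept their direction and call. Of these, Emd, Hspa8, Jup, Mef2c and Tbx20 were not called with TMM and were called higher in non-myocytes with total reads. A test against a fold of 2 (glmTreat), which asks for a larger change by construction, left 3356 and 4045 genes, and 4016 genes with the same call in every condition in place of 9536. By RPKM, which has no TMM factor, the residue was 5.30% for cardiomyocyte markers in non-myocytes, and in cardiomyocytes 2.78% for fibroblast, 12.1% for endothelial and 2.41% for macrophage markers.

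DESeq2, RLE factors, removal of mitochondrial genes, no filter and the 6 libraries alone left each of these counts within 1.5 times of the reported one. With the replicate block on the 6 libraries, the paired fit called 6077 and 6335 genes; this fit changes the libraries and the block together. Of the named genes, the 6 libraries alone ended 3 calls (Hexim1, Impact and Npas2) and added 6, and with the block 1 was ended (Impact, 0.70) and 8 were added; 6 of these were thus added without the block too, and Cd3e and Myl4 with it alone. Leaving out each library in turn gave 5723 to 5791 genes higher in cardiomyocytes and 6392 to 6514 in non-myocytes, 1237 to 1297 and 1311 to 1410 at least 8-fold, 409 to 415 and 410 to 421 list members, 9361 to 9454 genes with the same call in every condition, 15 to 16 pairs turned round with a median shift of 5.48 to 5.68, and residues of 2.42% to 2.90%, 4.85% to 5.67%, 22.2% to 25.4% and 4.16% to 5.37% for cardiomyocyte, fibroblast, endothelial and macrophage markers. Depth limits scarce transcripts, such as the lymphocyte markers and mt-Co2.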
